A study of Mus musculus with 2 samples.

Results

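The cells described here are astrocytes of the adult mouse brain that carried more RNA of Agt and Slc6a11 than of Mfge8 and Lhx2, and are called Agt/Slc6a11 astrocytes. They were picked from a pair of single-cell RNA libraries by the unique molecular identifiers (UMIs) of 13 genes. A barcode was taken with 500 or more genes detected, a mitochondrial share of its UMIs up to 10%, and at least 2 UMIs of each of at least 4 of the 8 astrocyte genes Slc1a2, Slc1a3, Aqp4, Gja1, Slc4a4, Gpc5, Atp1b2 and Ntsr2. Gria4 had to stay below 3000 counts per 1000000 UMIs of the cell (CPM), and the summed UMIs of Agt and Slc6a11 had to exceed those of Mfge8 and Lhx2. Of 17474 deposited barcodes, 795 met the rule, 577 in the control and 218 in the mutant library. Marker-chosen astroglia with the opposite or an equal balance of the 4 genes are called telencephalic-type astrocytes, 220 and 148 cells, and those over the Gria4 limit Gria4-high astroglia, 33 and 27 cells.

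The control library came from adult Csf1rfl/fl mice, whose Csf1r gene, coding for the receptor of colony-stimulating factor 1 and interleukin-34, is flanked by loxP sites. The mutant library came from adult Mrc1Cre:Csf1rfl/fl mice, which carry the same floxed alleles and a Cre recombinase expressed from the Mrc1 locus, active in macrophages with the mannose receptor and not aimed at astrocytes. The labels name whole brain as the tissue and do not give the number of animals, their sex or the day of preparation. Cells were sorted by surface proteins, astrocytes through ACSA-2, and the amount loaded from each gate is not given in the sources used here. With 1 library per genotype, a genotype cannot be told apart from its library, no p-value can be given, and every interval below covers counting error only.

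Astrocytes take up glutamate and GABA after release, buffer potassium, and meet blood vessels with end-feet rich in the water channel aquaporin 4. Their programmes differ by brain region and keep traces of the transcription factors that patterned the embryonic neural tube. Those of the thalamus, hypothalamus, midbrain and hindbrain are known for angiotensinogen, the Agt product from which angiotensin peptides are cut, and for the GABA transporter GAT-3, the Slc6a11 product. Those of the cortex and hippocampus are known for Lhx2, a homeodomain factor, and for Mfge8, a secreted bridge to phagocytes.

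In the GENCODE annotation of GRCm38, Agt lies on the minus strand at chr8:124556534-124569706 and Slc6a11 on the plus strand at chr6:114131241-114249952. The 250 bases before each start site, from RefSeq on GRCm38.p6, are shown because the rule turns on this pair of genes. They read 5′ to 3′ on the gene's strand, with capitals for matches to TATAAA, the core promoter letters, and to TTGGC, the core letters bound by nuclear factor I.
Agt, chr8:124569707-124569956, minus strand: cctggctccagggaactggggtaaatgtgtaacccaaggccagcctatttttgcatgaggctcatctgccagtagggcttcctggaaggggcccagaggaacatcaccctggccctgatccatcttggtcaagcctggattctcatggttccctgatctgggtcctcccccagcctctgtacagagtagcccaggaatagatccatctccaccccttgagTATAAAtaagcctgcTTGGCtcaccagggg
Slc6a11, chr6:114130991-114131240, plus strand: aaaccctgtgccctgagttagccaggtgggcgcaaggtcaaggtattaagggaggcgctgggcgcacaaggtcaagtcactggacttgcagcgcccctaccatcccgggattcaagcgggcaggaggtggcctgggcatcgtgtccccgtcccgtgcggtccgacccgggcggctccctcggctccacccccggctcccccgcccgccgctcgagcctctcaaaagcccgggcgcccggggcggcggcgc
On both strands and without overlap, Agt held 1 TATAAA at position 221 and 1 TTGGC at position 236 of its 250 bases, while Slc6a11 held neither. Of 32851 promoters of this length, 12.4% held TATAAA and 41.5% held TTGGC. The Slc6a11 stretch had 71.2% G and C, against 55.6% for Agt. A match is a run of letters and not a shown site.

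The libraries held 8739 control and 8735 mutant barcodes with 85716531 and 82806348 UMIs, of which 5742 and 6294 passed the gene and mitochondrial filters. The members had a median of 8961 and 7609.5 UMIs, against 10735 and 13318 in telencephalic-type astrocytes and 8313 and 8245 in microglia. The libraries shared 17 barcodes, 0 of them members. Scrublet marked 10.2% of control and 6.42% of mutant members as doublets, against 2.62% and 2.52% of all barcodes, and these members were kept. Border-associated macrophages chosen by their markers numbered 219 in the control and 84 in the mutant library.

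The genes that chose the cells are given first, as a description. Agt stood at 571 CPM of the summed UMIs (554 to 589) for control and 612 CPM (580 to 646) for mutant members, and Slc6a11 at 1301 CPM (1275 to 1328) and 1215 CPM (1170 to 1262). In telencephalic-type astrocytes Agt stood at 53.6 and 5.51 CPM. Microglia, which are not known to make either transcript and so give the level of free RNA, held 8.10 and 2.12 CPM of Agt. The pair did not always occur together. Of 577 control members 421 held UMIs of both genes, 139 of Slc6a11 alone and 17 of Agt alone, and of 218 mutant members 153, 44 and 21. Agt was at 0 in 24.1% of control and 20.2% of mutant members, and Slc6a11 in 2.95% and 9.63%. Across the members of a library, which share free RNA and differ in depth, the Spearman correlation of the pair was 0.490 in 577 control and 0.503 in 218 mutant cells.

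The other rule genes are given as a description, since they chose the members. The GLT-1 glutamate transporter gene Slc1a2 stood at 4431 and 3267 CPM, the heparan sulphate proteoglycan gene Gpc5 at 7459 and 5607 CPM, and the bicarbonate cotransporter gene Slc4a4 at 3737 and 3305 CPM. Aqp4 stood at 1162 and 1210 CPM and the GLAST glutamate transporter gene Slc1a3 at 1186 and 1299 CPM. Lhx2 was low, at 12.7 and 11.2 CPM, and Mfge8 stood at 241 and 213 CPM. Outside the rule, the astrocyte genes Slc7a10, Sox9 and Aldh1l1 stood at 530, 262 and 114 CPM in the control and 460, 371 and 104 CPM in the mutant, each below 9 CPM in microglia. Among abundant transcripts were those of the adhesion gene Lsamp, at 14537 and 11321 CPM, the channel gene Trpm3, at 12465 and 10297 CPM, and the lipid carrier gene Apoe, at 9598 and 10603 CPM.

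**Figure D1:**
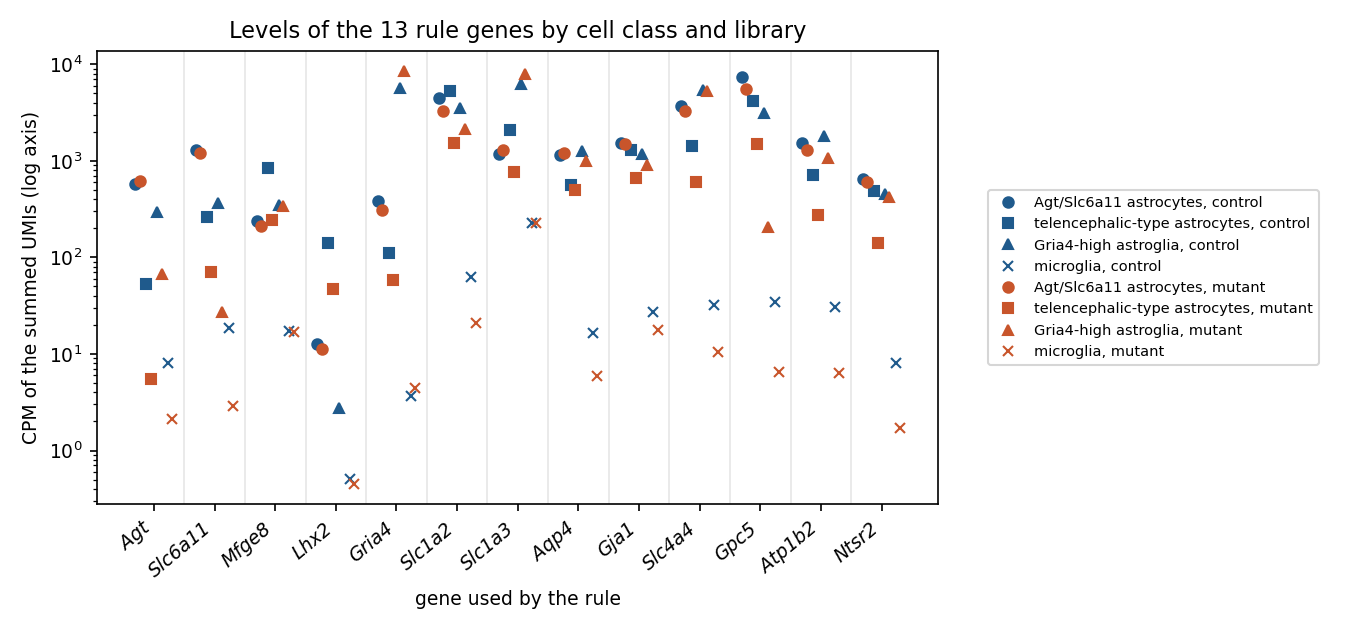
CPM of the summed UMIs (log axis) for the 13 rule genes in 4 cell classes, control in blue and mutant in orange, with 1 point per class and library. Agt and Slc6a11 are higher in Agt/Slc6a11 astrocytes than in telencephalic-type astrocytes and microglia, which is what chose the cells, and a point is missing for Lhx2 in mutant Gria4-high astroglia, which held 0 UMIs.

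Few members sat at a threshold. The balance of the 4 genes was 1 UMI above equality in 41 control and 23 mutant members, while 52 and 66 barcodes sat at equality and 21 and 31 were 1 UMI below it. Of the barcodes at equality, 30 and 58 held 0 UMIs of all 4 genes. At 3 of the 8 markers, 28 and 11 barcodes fell short, and at 4 of the 8, 30 and 15 were just inside. The highest Gria4 in a member was 2950 and 2873 CPM, and 9 control and 0 mutant barcodes lay between 3000 and 4000 CPM. Most members were far from the limits: 364 and 131 carried all 8 markers, and the median lead of Agt and Slc6a11 was 15 and 14 UMIs.

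RNA of other cell classes was present in part of the members, and its part in the results below was not tested. At least 4 of 8 microglial markers were found at 2 UMIs in 70 control and 23 mutant members, 4 of 8 ependymal markers in 27 and 17, and 4 of 8 choroid plexus markers in 14 and 6. For erythroid markers this held for 6 control and 0 mutant members. Their summed level was 8054 CPM in control and 127 CPM in mutant members, and the highest control cell held 846408 CPM. All 8 ependymal markers had UMIs, and their summed level was 764 CPM in control and 2411 CPM in mutant cells. In telencephalic-type astrocytes 4 ependymal markers were found in 18 of 220 control but 62 of 148 mutant cells. A core set was therefore also described: cells with at least 7 of the 8 astrocyte markers and fewer than 3 markers of each of 7 other classes. It held 338 control and 128 mutant Agt/Slc6a11 astrocytes and 114 and 27 telencephalic-type astrocytes. Markers of these classes, Ttr among them, chose the core, so their lower levels in it follow largely from that choice. In the core members the ependymal sum was 68.1 and 69.1 CPM, with Ccdc153 and Rsph1 at 0 in the mutant. The transthyretin transcript Ttr, made by choroid plexus, stood at 10818 and 8804 CPM in all members and at 1860 and 2151 CPM in the core, below the 3683 and 6745 CPM of microglia.

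Most control cells of this kind lay outside the mitochondrial limit. Without it, 1518 control and 338 mutant barcodes met the rule, so that 62.0% of the control (59.5 to 64.4) and 35.5% of the mutant cells (30.4 to 40.9) exceeded 10% mitochondrial UMIs. Microglia lost 8.58% and 5.63% by the same limit. The barcodes over the limit met the rest of the rule, so their rule genes are a description: Agt stood at 762 and 599 CPM in them, Slc6a11 at 1556 and 1344 CPM and Aqp4 at 1551 and 1331 CPM, with a median of 7331 and 6166 UMIs. Of genes outside the rule, Kcnd2 stood at 2825 and 3318 CPM in them against 2924 and 2692 CPM in members, Itih3 at 436 and 473 CPM against 406 and 434 CPM, and Pax3 at 96.8 and 94.8 CPM against 82.7 and 84.9 CPM. Agt in the control was lowest in the cells with up to 5% mitochondrial UMIs, at 281 CPM, and highest between 10% and 15%, at 828 CPM, while the mutant values for these bins were 636 and 701 CPM.

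Agt/Slc6a11 astrocytes were 69.5% of marker-chosen astroglia in the control (66.3 to 72.6) and 55.5% in the mutant (50.4 to 60.5), and 10.0% and 3.46% of all kept barcodes. These shares cannot be told apart from the amount loaded from the ACSA-2 gate, and the ependymal-marked cells among the mutant telencephalic-type astrocytes enter their denominator. In the core the mutant share was the higher one, with 71.3% and 74.9% of core astroglia. Among barcodes with up to 5% mitochondrial UMIs the share was 65.8% and 46.9%, and between 10% and 15% it was 84.2% and 76.0%. The share of the class among astroglia was thus higher above the limit than below it in both libraries.

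**Figure D2:**
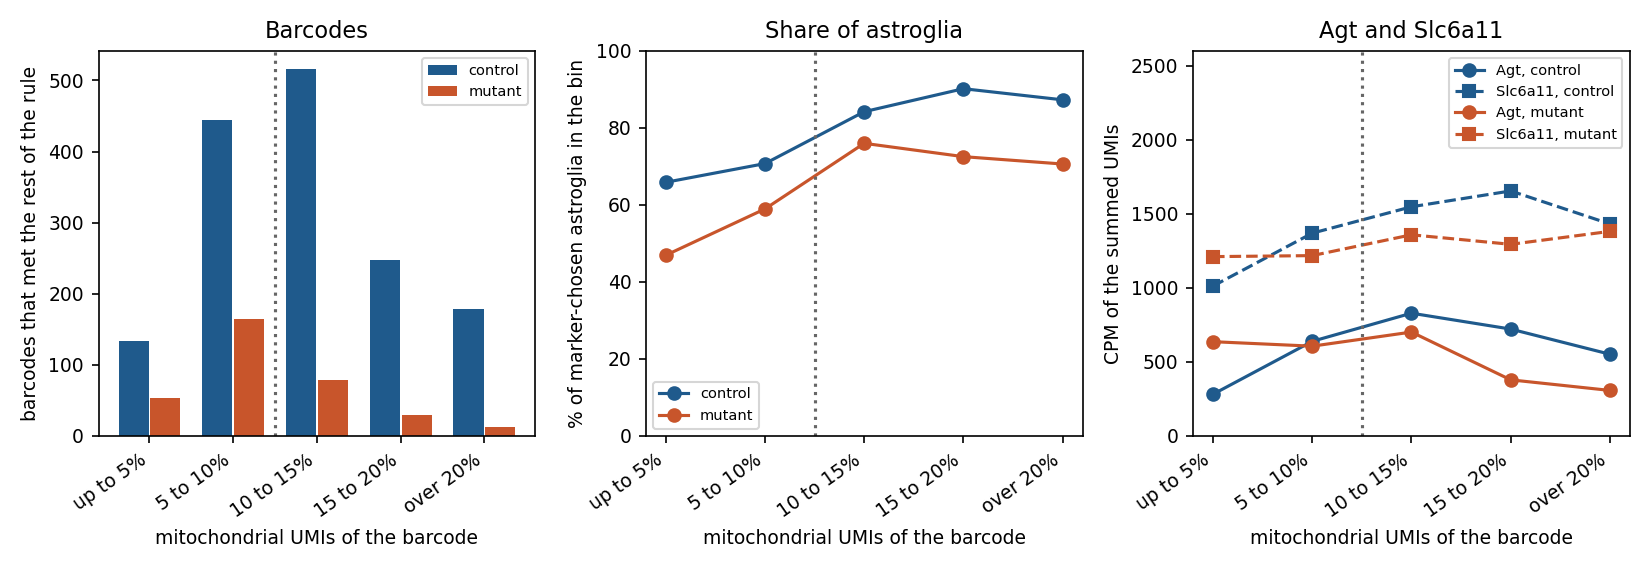
Barcodes that met the rest of the rule, their percentage of marker-chosen astroglia and the CPM of Agt and Slc6a11, by the mitochondrial UMIs of the barcode, with the 10% limit dotted. In the control 941 barcodes lie right of the limit and 577 left of it, and in the mutant 120 and 218.

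The positions the cells may have come from were read from 7 sets of patterning transcription factors, with at least 1 UMI counted as presence. The telencephalic set (Emx1, Emx2 and Dmrta2) was present in 10.1% of control and 8.72% of mutant members, against 47.3% and 30.4% of telencephalic-type astrocytes. The Irx set (Irx1, Irx2, Irx3 and Irx5), homeodomain factors of the neural tube behind the telencephalon, was present in 55.5% and 51.8% of members. Pax3, a factor of the dorsal neural tube, was present in 33.8% and 30.7%, and Nkx6-2, a ventral factor, in 19.1% and 17.9%. The forkhead gene Foxb1, known from the hypothalamus, midbrain and spinal cord, was present in 15.9% and 13.3%, and En1 or En2, of the midbrain and hindbrain border, in 7.97% and 4.59%. At least 1 of the 6 sets other than the telencephalic one was present in 77.3% (73.7 to 80.7) of control and 71.6% (65.1 to 77.4) of mutant members. In telencephalic-type astrocytes this was 16.4% and 37.8%, and in Gria4-high astroglia 97.0% and 92.6%. In mutant telencephalic-type astrocytes the Irx set was present in 33.1% of cells, near the 30.4% of the telencephalic set. In microglia, at a median of 8313 and 8245 UMIs, at least 1 of the 6 sets was present in 6.88% and 3.97%.

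The shares were also taken at equal depth. After each cell was thinned to 2000 UMIs, Pax3 was present in 14.1% of control and 13.9% of mutant members, against 1.38% and 2.04% of telencephalic-type astrocytes and 0.272% and 0% of microglia. Nkx6-2 was present in 7.67% and 8.80% of thinned members, against 1.83% and 0.680% of telencephalic-type astrocytes. Thinning left out 3 control and 2 mutant members. The 18 listed Hox genes, factors of the hindbrain and spinal cord, were present in 15.9% and 11.9% of members, but also in 4.85% and 2.94% of microglia. The core cells gave the same directions. The telencephalic set was present in 7.99% and 7.03% of core Agt/Slc6a11 astrocytes and in 64.0% and 25.9% of core telencephalic-type astrocytes. In the mutant, with 27 core telencephalic-type cells, the exact intervals of these shares overlapped. They also overlapped there for Pax3, Foxb1, the En set and the Hox set, but not for the Irx set and Nkx6-2. The Irx set was present in 58.9% and 57.0%, against 3.51% and 7.41%. Foxb1 was found in 0 of 114 and 0 of 27 core telencephalic-type cells, with exact upper bounds of 3.18% and 12.8%. A telencephalic factor without any of the other sets was present in 4.16% and 3.67% of all members.

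**Figure D3:**
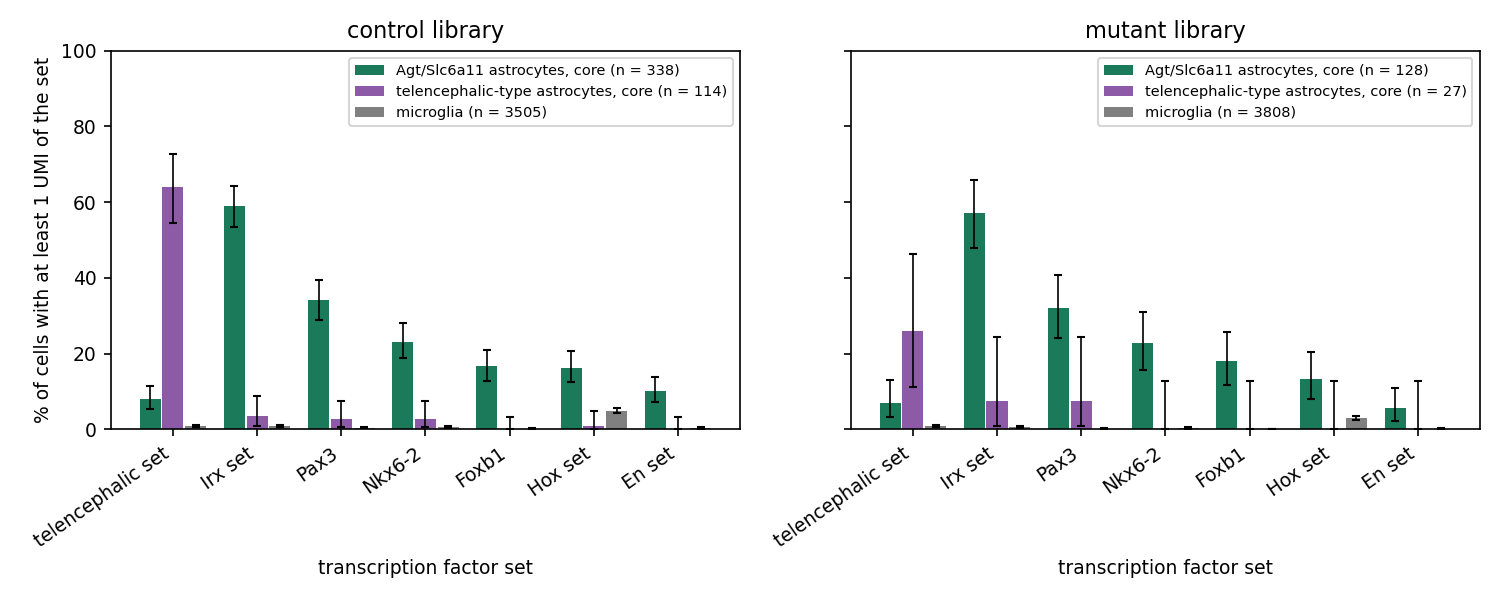
Percentage of cells with at least 1 UMI of each transcription factor set in core Agt/Slc6a11 astrocytes, core telencephalic-type astrocytes and microglia, control left and mutant right, with exact 95% binomial intervals as error bars. The telencephalic set is the 1 set higher in telencephalic-type cells, and each of the other sets is higher in Agt/Slc6a11 cells. In the mutant the intervals of these 2 classes overlap for every set but Irx and Nkx6-2.

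The factor sets did not mark the same cells, and both libraries gave the same order for 4 pairs named here after their values were seen. The Irx set was present in 72.3% of control members with Pax3 and 46.9% of those without it, and in 73.1% and 42.4% in the mutant. Hox transcripts were present in 27.7% of control members with Pax3 and 9.95% of the rest, and in 29.9% and 3.97% in the mutant. Nkx6-2 went the other way: it was present in 9.23% of members with Pax3 and 24.1% of the rest in the control, and in 7.46% and 22.5% in the mutant. Nkx6-2 was more frequent beside Foxb1, in 35.9% against 15.9% of control and 41.4% against 14.3% of mutant members. Most members held no UMI of Nkx6-2, with or without Pax3, so these shares do not place the dorsal and the ventral factor in separate cells. The depth of the cells moves with such counts and was not matched, and presence of 1 UMI misses low transcripts.

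Levels of Agt, Slc6a11 and Gria4 by set are a description, since these genes chose the members. The sets also share cells: 33 of 92 control and 12 of 29 mutant members with Foxb1 held Nkx6-2 too. Agt levels differed between the sets, and were highest with Nkx6-2. Agt reached 994 CPM among 110 control members and 1256 CPM among 39 mutant members with Nkx6-2, at 743 and 1097 CPM with Foxb1, and at 515 and 488 CPM with Pax3. The same order held for Itih3, a chain of a hyaluronan-binding plasma complex, at 780 and 1124 CPM with Nkx6-2, 483 and 832 CPM with Foxb1 and 358 and 333 CPM with Pax3. Igsf1, an immunoglobulin superfamily membrane protein gene, stood at 136 and 256 CPM with Nkx6-2 and at 46.9 and 40.9 CPM with Pax3. Slc6a11 stood at 1691 and 1978 CPM with Nkx6-2, at 1504 and 1901 CPM with Foxb1 and at 1313 and 1068 CPM with Pax3. Its lowest values over the sets were 1016 CPM with the telencephalic set in the control and 949 CPM with En1 or En2, from 10 cells, in the mutant. Gria4, an AMPA receptor subunit gene, was higher with Pax3, at 557 and 550 CPM, and with Hox transcripts, at 647 and 728 CPM, than with Nkx6-2, at 323 and 267 CPM, or Foxb1, at 315 and 240.0 CPM. Gria4 chose the neighbouring class, and 90.9% of control and 92.6% of mutant Gria4-high astroglia carried Pax3.

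Members with none of the 7 sets, 107 in the control and 54 in the mutant, differed from the rest in the neuropeptide Y gene Npy, which was chosen after its values were seen. Npy stood at 1028 and 2363 CPM in them and at 65.1 and 38.1 CPM in members with any set. Its UMIs lay in few cells: 546 of 577 control and 197 of 218 mutant members held 0, and the highest cell held 147 and 195 UMIs. Agt in the members without a set stood at 367 and 552 CPM and Slc6a11 at 1147 and 1034 CPM. Which cells carried Npy beside astrocyte markers was not tested.

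Compared with telencephalic-type astrocytes, the members were described gene by gene. A gene was called higher when its CPM ratio was at least 1.5 with a 95% interval that excluded 1, and lower at the inverse, in both libraries. A gene was tested when it held at least 50 UMIs over the compared groups and reached 10% of its level in every other class in at least 1 of them, and the 13 rule genes were left out. Ribosomal protein, mitochondrial, haemoglobin, predicted and RIKEN-named genes were also left out of every comparison, as were Xist and further sex-linked genes. Since the classes were drawn from the RNA of the same cells, all of these values are a description. Over all members 596 of 9206 genes were higher (6.47%) and 1129 lower (12.3%), and scaling by the trimmed mean of M values, which moved the median log2 ratio by 0.14 in the control and 0.05 in the mutant, gave 791 and 823. In the core 245 of 3998 were higher (6.13%) and 214 lower (5.35%). Of the 596 genes 500 were tested in the core and 172 were called higher there too, and of the 1129 genes 232 were tested and 53 were lower, with 0 called in the opposite direction. Medians over all genes tested were 0.926 in the control and 0.930 in the mutant, and 1.03 and 1.01 in the core.

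The genes farthest above telencephalic-type astrocytes included a receptor, a channel and a cyclase. Erbb4, the neuregulin receptor, stood at 2030 and 1768 CPM in members against 105 and 124 CPM, and in the core at ratios of 24.2 (20.2 to 29.2) and 8.09 (6.32 to 10.5). Kcnd2, the potassium channel Kv4.2, stood at 2924 and 2692 CPM against 339 and 128 CPM, and in the core at 7.57 (6.96 to 8.26) and 8.83 (7.20 to 10.9). The carbonic anhydrase-related gene Car10 stood at 720 and 658 CPM against 63.7 and 33.5 CPM, and the adenylyl cyclase gene Adcy8 at 242 and 232 CPM against 18.0 and 5.05 CPM. Both were also high in Gria4-high astroglia, Car10 at 1174 and 1222 CPM and Adcy8 at 197 and 153 CPM. Without the Gria4 limit the Car10 ratio fell from 11.3 to 5.97 in the control and from 19.6 to 4.11 in the mutant, and the Adcy8 ratio from 13.4 to 8.61 and from 45.9 to 11.1. In the core the mutant ratios were 5.14 for Car10 and 13.7 for Adcy8. The Erbb4 and Kcnd2 levels were below 17 CPM in microglia. Acvr1c, Prss35, Caln1, Prr16, Nalf1 and Sh3gl2 completed the highest 10, at core ratios from 8.65 to 33.6 in the control and from 1.58 to 10.3 in the mutant, where the interval for Caln1 (0.980 to 32.4) held 1. Over all members, without the Gria4 limit, Nalf1 fell from 10.4 to 5.18 in the control and from 7.87 to 2.36 in the mutant. Sh3gl2 fell from 10.6 to 8.12 and from 9.39 to 5.30, and Erbb4 from 19.3 to 15.1 and from 14.3 to 11.9. Acvr1c fell from 10.9 to 10.1 and from 14.2 to 10.4, while Kcnd2, Caln1 and Prss35 rose in both libraries.

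The 10 lowest genes, Ptgds, Slc6a20a, Asgr1, Slc6a13, Rbp4, Eya2, Serping1, Kcnb2, Ogn and Prdm6, include genes known from meningeal fibroblasts, among them Ogn and Slc6a13. Ptgds, the prostaglandin D synthase gene, stood at 235 and 215 CPM in members against 4397 and 4666 CPM in telencephalic-type astrocytes, but at 64.5 and 58.2 CPM against 46.5 and 71.2 CPM in the core. The other 9 stood below 6 CPM in every core group, and of these Slc6a13 is a fibroblast marker that helped to choose the core. Fibroblast markers moved with them, at 154 and 169 CPM in members against 799 and 945 CPM, with 0 UMIs of Slc6a13 in the control members. Their part in the 1129 lower genes was not tested, and the gene groups below are therefore given for the core. Their counts stand beside 6.13% of all genes tested in the core called higher and 5.35% called lower.

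Of the 38 listed patterning genes of the diencephalon, midbrain and hindbrain, 7 were tested in the core, 4 were higher and 2 lower, with median ratios of 3.24 and 2.18. Pax3 stood at 100 and 131 CPM against 9.83 and 20.3 CPM, and the TALE factor gene Meis1 at 194 and 199 CPM against 59.9 and 91.5 CPM. Nkx6-2 and Irx5 had 0 UMIs in mutant core telencephalic-type cells and stood at 61.5 and 54.4 CPM in control core members against 3.57 and 2.68 CPM. The factors Pax6, at 58.2 and 53.3 CPM against 120 and 117 CPM, and Meis2, at 329 and 287 CPM against 516 and 463 CPM, were the 2 lower ones. The oligodendrocyte lineage factor gene Olig2, which some astrocytes also carry, was higher at 1.71 (1.30 to 2.28) and 4.66 (1.53 to 23.1). It is 1 of 8 listed oligodendrocyte precursor markers, which summed to 574 and 503 CPM in core members against 140 and 219 CPM in core telencephalic-type cells. Of these markers 3 were tested, of which 2 were higher in the core and 3 in all members. Pdgfra, also a fibroblast marker that helped to choose the core, held 0 UMIs in mutant core members. In either library 0 members held 2 UMIs of 4 of the markers. The part of precursor cells in the difference was not tested.

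Regional astrocyte markers other than the rule genes split as well, with 8 of 18 tested members higher and 3 lower and medians of 1.51 and 1.15. Itih3 stood at 550 and 718 CPM against 126 and 122 CPM, and the matrix protein gene Sparc at 930 and 929 CPM against 211 and 122 CPM. The glycine transporter gene Slc6a9 stood at 356 and 407 CPM against 59.9 and 86.4 CPM, and Etnppl, coding for a phospholyase of phosphoethanolamine, at 243 and 291 CPM against 98.3 and 61.0 CPM. Hopx stood at 67.5 and 46.4 CPM against 472 and 254 CPM, and the monoacylglycerol lipase gene Mgll at 183 and 147 CPM against 638 and 574 CPM. In all members Sparc did not pass the size rule, at 1.28 and 1.06, and microglia carried it at 2543 and 2446 CPM.

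Transmitter genes had calls both ways. Of all genes tested 6.13% were higher and 5.35% lower in the core, and 6.47% and 12.3% in all members. In the glutamate list 2 of 12 members tested in the core were higher and 3 lower, against 4 higher and 0 lower of 15 in all members. The metabotropic receptor gene Grm5 stood at 371 and 310 CPM against 108 and 55.9 CPM, and the AMPA receptor gene Gria1 at 790 and 1075 CPM against 158 and 40.7 CPM. Lower were Grm3, at ratios of 0.390 (0.368 to 0.413) and 0.328 (0.290 to 0.371), the NMDA receptor gene Grin2c, at 0.474 and 0.376, and glutamine synthetase Glul, which turns glutamate into glutamine, at 0.399 (0.379 to 0.419) and 0.541 (0.480 to 0.611). Of the 13 GABA and glycine genes tested in the core, Slc6a9 was higher and Gldc, the glycine cleavage enzyme gene, was lower, at 56.5 and 46.4 CPM against 223 and 234 CPM. Those core counts lie near the shares of all genes tested. In all members 5 of 16 were higher and 1 lower. In all members Glul went opposite ways, at 0.538 in the control and 1.55 in the mutant, beside the ependymal-marked cells of the mutant telencephalic-type group.

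Of the 14 tested potassium, water and end-foot genes 2 were higher and 1 lower in the core, where 6.13% of all genes tested were higher and 5.35% lower. The inward rectifier Kir4.1 gene Kcnj10 stood at 579 and 552 CPM against 292 and 239 CPM, and dystrophin, Dmd, which anchors end-foot proteins, at 1465 and 1513 CPM against 563 and 991 CPM. The TREK-1 potassium channel gene Kcnk2 was lower at 0.331 (0.266 to 0.411) and 0.488 (0.318 to 0.766). Of 6 tested neuromodulator receptors Adra2a, the alpha-2A adrenergic receptor gene, and Adora1, the adenosine A1 receptor gene, were higher, Adra2a at 88.9 and 85.8 CPM against 25.0 and 20.3 CPM. Among 14 tested genes of thyroid hormone and metal handling 1 was higher and 4 lower, among them the thyroid hormone transporter gene Slco1c1, at 351 and 278 CPM against 832 and 859 CPM, and the deiodinase gene Dio2, at 89.4 and 74.0 CPM against 172 and 178 CPM.

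Of 17 synapse-acting and matrix genes tested in the core, 4 were lower and 2 higher, while in all members 0 of 20 were lower and 6 higher. The proteoglycan gene Cspg5 stood at 377 and 319 CPM against 1560 and 1301 CPM, and the link protein gene Hapln1 at 35.7 and 29.6 CPM against 218 and 234 CPM. Lrig1, an inhibitor of ErbB receptors, was on the higher side with Sparc, at 652 and 622 CPM against 155 and 137 CPM. Clusterin, Clu, a lipoprotein of the lipid list, was lower at 0.422 (0.404 to 0.441) and 0.433 (0.395 to 0.474). Of 24 tested nuclear genes of oxidative phosphorylation 5 were lower and 0 higher, with medians of 0.566 and 0.747. The mutant telencephalic-type core held 27 cells, which limits the precision of every mutant ratio here.

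**Figure D4:**
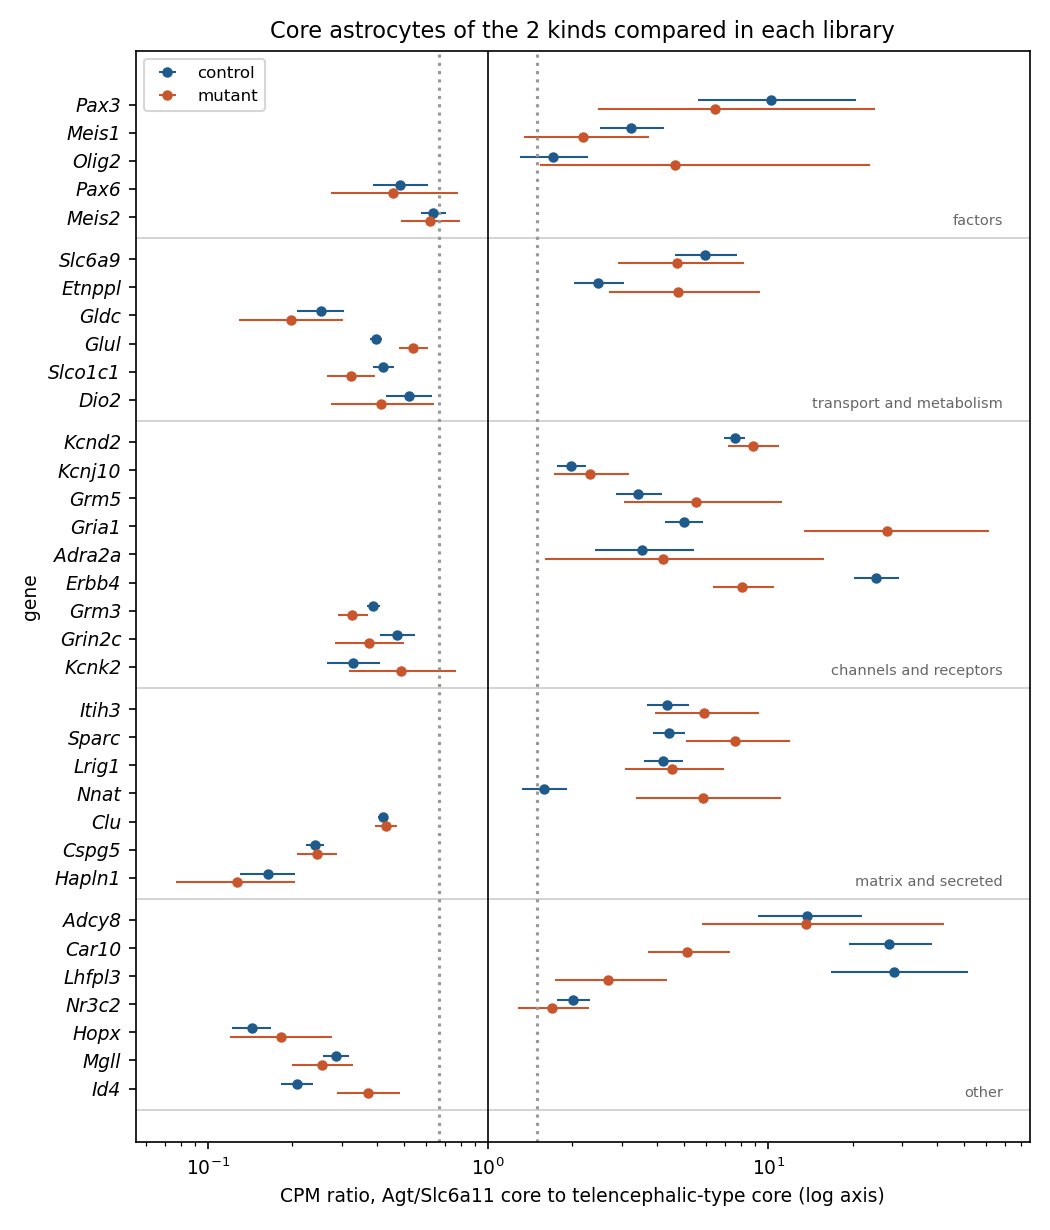
CPM ratio of core Agt/Slc6a11 to core telencephalic-type astrocytes (log axis) for 34 genes outside the rule, control in blue and mutant in orange, with exact conditional 95% intervals as bars and dotted lines at 1.5 and its inverse. The genes drawn were picked from named genes, and a call needed the same direction in both libraries. That the 2 libraries lie on the same side of 1 for each gene therefore follows largely from the choice. Examples are Kcnd2 at 7.57 and 8.83 and Cspg5 at 0.242 and 0.245.

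The angiotensin system was followed because Agt is its precursor gene. The renin gene Ren1 held 0.283 and 0.899 CPM, and the receptor gene Agtr1a held 0 UMIs in both libraries. The converting enzyme gene Ace stood at 11.3 and 7.19 CPM in all members but 2.97 and 0.987 CPM in the core, and the aminopeptidase gene Enpep at 8.34 and 5.39 CPM. The insulin-regulated aminopeptidase gene Lnpep and the prorenin receptor gene Atp6ap2 stood at 152 and 130 CPM and at 120 and 115 CPM, near telencephalic-type astrocytes with 135 and 95 CPM and 146 and 123 CPM. Nr3c2, the mineralocorticoid receptor gene, was higher than in telencephalic-type cells, in the core at 2.01 (1.77 to 2.30) and 1.69 (1.28 to 2.29). Between the genotypes 0 of 7 tested members were called, with a median of 0.875, beside 8.96% of all genes tested called higher and 2.3% lower.

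The genotypes were then compared within the members. Of 10359 genes tested, 928 stood higher in the mutant (8.96%) and 238 lower (2.3%). Scaling by the trimmed mean of M values, which moved the median log2 ratio by -0.11, gave 723 and 470. In the core 144 of 7987 genes stood higher (1.8%) and 180 lower (2.25%). Of the 928 genes, 299 were tested in the core, of which 48 were called higher and 8 lower there, and of the 238 genes 124 were tested and 40 were lower. The median ratio of all genes tested was 1.03, and 1.01 in the core.

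Markers of ependymal cells, the ciliated lining of the ventricles, stood out among the higher genes. All 8 ependymal markers were called higher, with a median ratio of 3.06. Tmem212 stood at 145 and 494 CPM and Mia at 63.0 and 230 CPM. In the core, which was chosen by low counts of these markers, they stood at 0.892 and 2.96 CPM and at 8.62 and 9.87 CPM. The other members of the highest 10, Nrg3, Frmpd4, Kcnh7, Tsnaxip1, Ucma, Clec3b, Sncg and Ly6h, stood between 22.0 and 77.3 CPM in the mutant, at ratios from 4.19 to 11.1. In the core all 8 were below 19 CPM in both libraries, and Ucma stood at 18.7 and 9.87 CPM. With at most 5% mitochondrial UMIs, in 53 mutant members, the ratios were 1.40 for Tmem212, 2.22 for Mia, 1.23 for Ucma and 1.80 for Clec3b. For Frmpd4 the ratio was then 29.8, for Sncg 52.9, for Ly6h 8.52, and for Kcnh7 and Tsnaxip1 6.61. The part of ependymal RNA in the higher genes was not tested.

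The lowest 10 genes mixed sources too. The prolactin gene Prl, made by the pituitary, held 1176 UMIs in control and 0 in mutant members, at least 123-fold lower against a floor of 3 counts over the group, while control microglia held it at 177 CPM and mutant microglia at 0. Csf1r, Crybb1, Rab3il1, Fgf13 and Immp2l, each higher in microglia than in members, were also lower, and so were 3 of 8 microglial markers, which had a median ratio of 0.752; their part in these genes was not tested. Csf1r, the floxed gene, stood at 245 CPM in control and 155 CPM in mutant members, against 2278 and 1772 CPM in microglia. In the core, which it helped to choose as a microglial marker, Csf1r stood at 33.6 and 32.6 CPM. Without the barcodes that Scrublet marked, its ratio was 1.21. The ratios of Crybb1, Rab3il1, Fgf13 and Immp2l were then 0.955, 0.891, 0.786 and 0.796, short of the size rule. Whether the counted 3′ ends lie in the deleted part is not given in the sources used here, so Csf1r does not check the labels. Its ligand gene Csf1 stood at 33.8 and 29.7 CPM, and Il34 held 2 and 0 UMIs.

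Among the lower genes, 4 of the 5 named here were also called in the core. The nicotinic receptor modulator gene Lypd6 stood at 24.6 and 8.09 CPM, a ratio of 0.329 (0.190 to 0.535), and at 0.294 (0.115 to 0.635) in the core. The transcription cofactor gene Eya1 stood at 65.8 and 29.2 CPM and at 72.5 and 36.5 CPM in the core. The netrin receptor gene Dcc stood at 105 and 59.3 CPM and at 126 and 67.1 CPM in the core. Its ratio of 0.565 missed the size rule at 0.885 with equal weight per cell, at 0.830 with at most 5% mitochondrial UMIs and at 0.847 without the mitochondrial limit, where Lypd6 also missed it at 0.706. The phosphatase gene Ptpro stood at 34.8 and 14.4 CPM, and its 20.5 and 5.92 CPM in the core were not tested, being under 10% of its level in another class. Adra1b, the alpha-1B adrenergic receptor gene of astrocytes, stood at 26.1 and 12.6 CPM, a ratio of 0.481 (0.311 to 0.719), with 0.457 (0.247 to 0.787) in the core, the 1 called member of 8 tested neuromodulator receptors. Of all genes tested 2.3% were lower in all members and 2.25% in the core.

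Among listed astrocyte genes the higher calls that also held in the core were few. Of 20 astrocyte identity genes 2 were called higher and 0 lower, in all members and in the core. Of all genes tested 8.96% were higher in all members, near the share of this list, and 1.8% in the core. Gfap, the intermediate filament gene, stood at 17.4 and 28.8 CPM, a ratio of 1.65 (1.20 to 2.26), and at 1.69 (1.06 to 2.64) in the core. Sox2, a factor of neural stem cells and astrocytes, stood at 183 and 305 CPM and at 217 and 365 CPM in the core, a ratio of 1.68 (1.48 to 1.91). Gfap was low in both libraries, and 504 of 577 control members held 0 UMIs of it. The differentiation inhibitor genes Id4 and Id1 stood at 146 and 242 CPM and at 35.3 and 63.8 CPM, with core ratios of 1.54 (1.28 to 1.85) and 1.59 (1.08 to 2.31). Id1 and the complement gene C4b, which stood at 9.61 and 19.3 CPM with a core ratio of 2.41 (1.37 to 4.21), were outside the tested genes because they stood under 10% of their level in another class.

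Of 20 tested regional markers 2 were higher in the mutant, and of 21 patterning genes 3, beside 8.96% of all genes tested. In the core these were 1 of 19 and 2 of 16, beside 1.8%. Nnat, an imprinted endoplasmic reticulum protein gene, stood at 234 and 477 CPM, with a core ratio of 1.89 (1.66 to 2.14). The zinc finger factor gene Zic4 stood at 19.8 and 45.4 CPM, with 3.60 (2.23 to 5.82) in the core, and the secreted protein gene Islr at 21.6 and 52.1 CPM, with 5.66 (3.65 to 8.92), though Islr, under 10% of its level in another class, was outside the tested genes. Nkx6-2 stood at 1.36 (1.10 to 1.66) in all members, under the size rule, and at 1.64 (1.28 to 2.08) in the core, while its share of members was 19.1% and 17.9%. Pax3 stood at 82.7 and 84.9 CPM.

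Of 9 tested reactive astrocyte genes 5 were higher in the mutant, with a median of 1.65, namely Gfap, Vim, Cd109, S100a10 and S1pr3, and in the core 1 of 2, Gfap. The lists here stand beside 8.96% of all genes tested called higher in all members and 1.8% in the core. Vim, the vimentin gene, stood at 98.6 and 213 CPM in all members and at 29.7 and 7.89 CPM in the core, with ratios of 2.16 (1.92 to 2.44) and 0.266 (0.112 to 0.544), the latter outside the tested genes. Vimentin is also a gene of ependymal cells. Fabp7, the brain fatty acid-binding protein gene, stood at 476 and 978 CPM and at 387 and 456 CPM in the core, and the metallothionein gene Mt3 at 1373 and 2143 CPM and at 1424 and 1595 CPM. Of 12 heat shock genes 3 were higher in all members and 0 of 8 in the core, and of 8 immediate early genes 1 and 0 of 5.

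Lists of astrocyte work are given beside all genes tested, of which 8.96% were higher and 2.3% lower in all members. In the core these shares were 1.8% and 2.25%. In lists this short, few calls near these shares are not a result about the listed genes. Of 15 tested GABA and glycine genes 0 were called in all members, with a median of 0.985. In the core Aldh5a1, at 1.5 (1.09 to 2.04), was higher and Aldh9a1, at 0.565 (0.310 to 0.966), lower, both aldehyde dehydrogenase genes. Of 15 glutamate genes 1 was lower, Grm5, at 308 and 198 CPM and at 0.834 (0.735 to 0.944) in the core. Of 21 glycolysis genes and 25 nuclear oxidative phosphorylation genes 0 were called, with medians of 1.10 and 1.17. Of 24 lipid genes 1 was higher, Fabp7, and of 15 potassium and end-foot genes 1, Kcnk2, at 1.60 (1.33 to 1.91) and 1.53 (1.16 to 2.02) in the core. Of 14 vessel and macrophage signals 2, Fgf2 and Igf1, were higher, and 0 of 11 in the core. With 1 library per genotype these counts describe 2 preparations, and a list without calls is not shown to be equal between the genotypes.

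**Figure D5:**
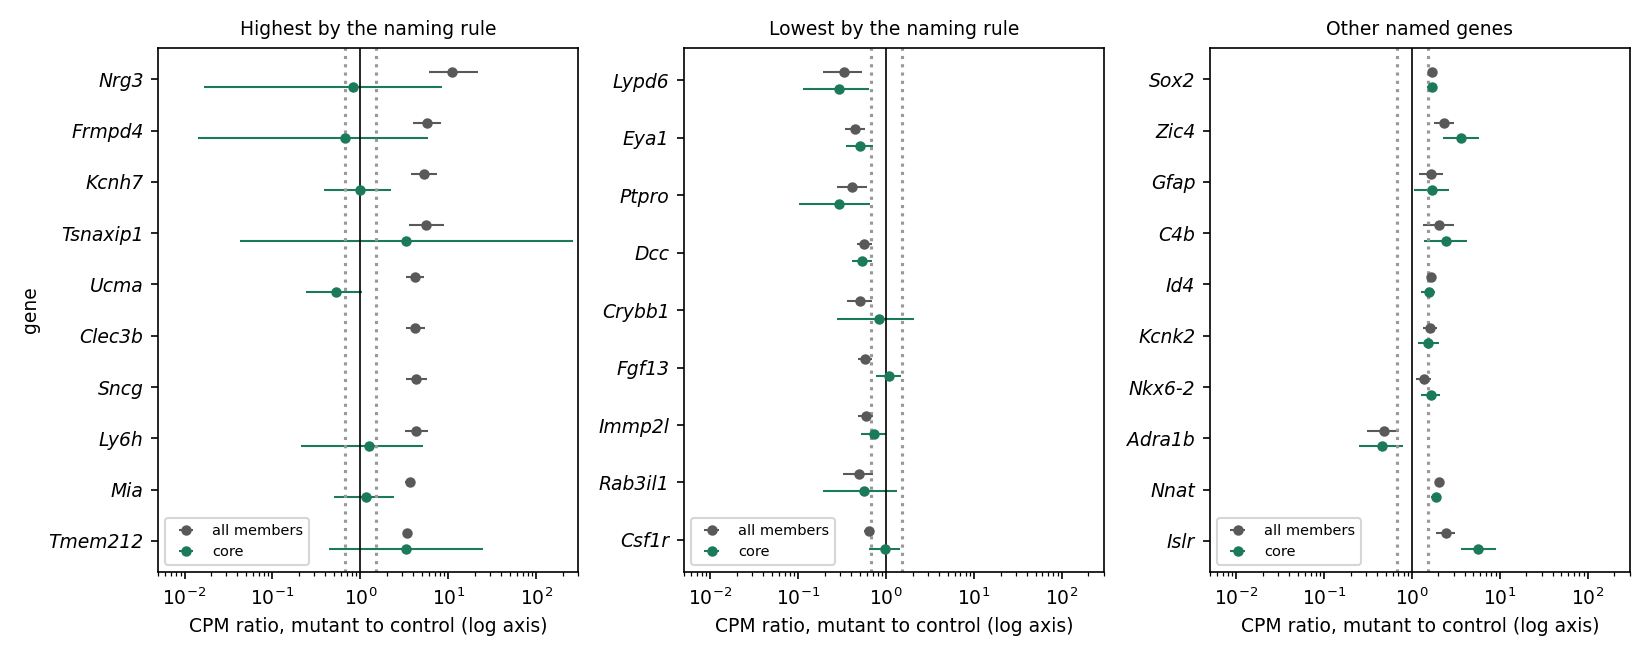
CPM ratio of mutant to control Agt/Slc6a11 astrocytes (log axis) with exact conditional 95% intervals, all members in grey and the core in green, for the highest and lowest genes by the naming rule and for 10 other named genes, with dotted lines at 1.5 and its inverse. Core points of the highest genes lie near or below 1 or have wide intervals, those of Lypd6, Eya1, Dcc, Sox2, Zic4 and Nnat stay on the side of all members, and genes with 0 UMIs in a library (Clec3b and Sncg in the core, and Prl) are not drawn there.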

How the data were processed

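Single-cell RNA from 1 control and 1 mutant library was deposited by the authors as raw UMI counts per gene and barcode, made with Cell Ranger 7.1.0 on GRCm38.p6 (mm10), per the submitters' processing notes. The library kit was 10x Chromium 3′ v3.1, per the labels' protocols. Whether intronic reads were counted is not given in the sources used here.

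Counts were read in Python 3.11.15 with numpy 2.4.6, scipy 1.17.1 and pandas 2.3.3. UMIs were summed over the cells of a class and library and divided by their total, per 1000000. Intervals are exact 95% Poisson, Clopper-Pearson or conditional binomial ones, and UMIs of 1 library are not replicates. A ratio of at least 1.5, or its inverse, with an interval without 1 was called. The size rule was tested on simulated counts. Doublets were marked with Scrublet in scanpy 1.11.5 at an assumed rate of 0.008 per 1000 barcodes. Scaling factors came from edgeR 4.0.16, gene positions from GENCODE M21, which matched 25637 of 26033 genes, and promoters from RefSeq, which matched both genes asked for. Figures were drawn with matplotlib 3.10.9.

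The members, the 38 gene lists and the alternatives were chosen with earlier results of these data known. Named genes were the 13 rule genes and the highest and lowest 10 per comparison. The ranking used the interval bound nearer to 1 among called genes at 20 CPM or more in 1 group. Also named were the most differing 2 to 4 members of described lists, Csf1r and its ligands. The last were the 10 most abundant genes outside mitochondrial and ribosomal protein genes. C4b, Id1, Islr, Npy, Vim and further list members were named after their values were seen. Alternatives changed doublet removal, each threshold of the rule, scaling, cell weights and gene filters. The core cells and the removal of the mitochondrial limit were added after seeing the data. Some members of the lists are not reported here, and the telencephalic set was recomputed without one of them.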

Additional observations from a re-analysis of the deposited data

Results flagged for a closer look

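The mitochondrial limit left out barcodes that met the rest of the rule. In the control library 941 such barcodes exceeded 10% mitochondrial UMIs, and in the mutant library 120.

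Frmpd4 moved in opposite directions in the 2 kinds of astrocytes. Its mutant to control ratio was 5.76 (4.01 to 8.38) in Agt/Slc6a11 astrocytes, while in telencephalic-type astrocytes control cells held 42.4 CPM and mutant cells 21.6 CPM. With 1 library per genotype the difference was not tested, and in the core the level in Agt/Slc6a11 astrocytes was 1.49 and 0.987 CPM.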

How the results depend on the processing

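With at most 5% mitochondrial UMIs the members numbered 133 in the control and 53 in the mutant, their shares of astroglia were 65.8% and 46.9%, 704 genes were lower in the mutant, and 483 were lower than in telencephalic-type astrocytes. Without the limit these were 1518 and 338 members, 79.0% and 61.0%, and 122 and 1748 genes. With at least 5 markers the mutant share was 66.6% and 714 genes were lower than in telencephalic-type astrocytes. With a margin of 3 UMIs the shares were 61.6% and 48.1%, 419 genes were higher in the mutant and 629 lower than in telencephalic-type astrocytes. Scaling by the trimmed mean of M values gave 470 genes lower in the mutant, and equal weight per cell gave 596 higher. In the core cells 338 and 128 members were left, the mutant share was 74.9%, 144 genes were higher in the mutant, and 245 were higher and 214 lower than in telencephalic-type astrocytes. Fewer cells and fewer genes tested are part of the construction of these alternatives, and otherwise the cause was not tested. Each other count of genes or members stayed within 1.5 times its value, and each other share within its interval, under the alternatives run.

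Of 546 values of 50 named genes under alternatives, 363 stayed within the interval of their main value, 166 left it and 17 changed direction. Such intervals can be wide. The mutant Prss35 ratio to telencephalic-type astrocytes counted as within its interval at 56.5 without marked doublets, against 29.9 in the main setting. The alternatives differed: in the core cells 13 values stayed within the interval, 23 left it and 9 changed direction. With at least 1000 genes 58 values stayed within it. Csf1r was at a mutant to control ratio of 1.21 without marked doublets. In the core the mutant to control ratio was 0.984 for Kcnh7, 0.527 for Ucma, 1.07 for Fgf13, 0.664 for Frmpd4 and 0.830 for Nrg3. The ratio to telencephalic-type astrocytes in the control was 1.39 for Ptgds, 2.0 for Serping1, 1.66 for Slc6a20a and 2.0 for Ogn in the core, 3.19 for Slc6a20a and 1.45 for Rbp4 with at least 5 markers, and 1.33 for Serping1 and 1.24 for Rbp4 with the margin of 3 UMIs. In the mutant it was 1.13 for Kcnb2, 3.36 for Eya2 and 1.72 for Ogn with at least 5 markers.

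No paired analysis was possible because each genotype has 1 library, so that no library could be left out either. Depth limits genes with few UMIs, and the 27 mutant core telencephalic-type cells limit every mutant ratio to them.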
